A study of Mus musculus with 8 samples.

Results

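The piRNA pathway genes Tdrd9, Tdrd1, Tdrd5, Mael, Piwil2, Piwil4, Mov10l1, Ddx4, Asz1 and Gtsf1, 10 of the 19938 genes measured by a probe set of their own, were followed across 3 cultures of mouse spermatogonial stem cells. The members were the rows of the value table whose probe set carried that symbol alone, with the brightest probe set over the 8 arrays standing for a gene; each of the 10 genes had 1 such probe set, so nothing was discarded. Spermatogonial stem cells are the germ cells of the testis that renew themselves and can restore spermatogenesis after transplantation. The serial transplant long culture (n = 2 arrays) came from stem cells passed serially through recipient testes, labelled with a 1500-day donor age, and had been cultured for 14 to 18 months. The young long culture (n = 3) came from 8-day donors and had been cultured equally long, for 14 to 18 months. The young short culture (n = 3) came from 8-day donors and had been cultured for 7 to 10 weeks. The labels give no strain, sex, genotype or growth conditions, and they do not say whether replicates were separate donors, cultures or clones, so each p-value reflects array-to-array spread, some of which may be technical. The labelled donor age and transplantation came together in the serial transplant group and cannot be told apart.

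PIWI-interacting RNAs, or piRNAs, are short RNAs of the germ line that guide PIWI proteins to the transcripts and the genomic copies of retrotransposons. Long precursors are unwound and cut, mostly at the surface of mitochondria and in neighbouring cytoplasmic granules. The loaded PIWI proteins then slice matching transcripts in the cytoplasm or, in fetal male germ cells of the mouse, direct DNA methylation at retrotransposon promoters. Mouse males that lack any of several of these genes are sterile, with retrotransposons released in their germ cells. The genes therefore fall into PIWI proteins (Piwil2, Piwil4), RNA helicases and precursor processing (Mov10l1, Ddx4), Tudor domain scaffolds (Tdrd1, Tdrd5, Tdrd9), and partners of the granules and mitochondria (Mael, Asz1, Gtsf1).

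The values were log2 RMA signals, 1 per probe set and array, and 28944 probe sets were tested with limma. Array medians lay between 6.90 and 6.98, and correlations between arrays between 0.974 and 0.997. The median of all probe sets, 6.94, served as a mark of dim signals, since RMA gives no detection call. Of 18 markers of undifferentiated germ cells, 16 were above that mark in the serial transplant long cultures, 17 in the young long cultures and 18 in the young short cultures. The mark does not set that cell type apart, since 7 of 7 markers of differentiating spermatogonia and 12 of 13 fibroblast markers were above it in every group, and of 9 macrophage and mast cell markers 1 was in the serial transplant long, 1 in the young long and 6 in the young short cultures. Array signals depend on each probe set's own affinity, so levels are compared between groups for a gene and not between genes.

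The bases just before the transcription start are shown for 4 genes: Tdrd9, the member with the largest change, and Mov10l1, Ddx4 and Gtsf1, which varied together within the young long cultures. The sequences are from RefSeq, assembly GRCm38.p6, 250 bases each, written 5′ to 3′ on the strand of the gene and ending at the last base before its start; 9 of the 10 members had an entry, all but Piwil2. Capitals mark the E-box CACGTG, which reads the same on both strands, or the E2F6-type motif GCGGGAA, searched also as TTCCCGC on the other strand; no 2 marked motifs overlap.
Tdrd9, chr12:111971309-111971558, plus strand: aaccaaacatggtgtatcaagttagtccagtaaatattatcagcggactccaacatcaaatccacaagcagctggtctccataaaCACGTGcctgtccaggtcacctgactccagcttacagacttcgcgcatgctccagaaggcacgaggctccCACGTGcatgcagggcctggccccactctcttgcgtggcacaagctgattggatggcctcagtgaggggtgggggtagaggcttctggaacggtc
Mov10l1, chr15:88982744-88982993, plus strand: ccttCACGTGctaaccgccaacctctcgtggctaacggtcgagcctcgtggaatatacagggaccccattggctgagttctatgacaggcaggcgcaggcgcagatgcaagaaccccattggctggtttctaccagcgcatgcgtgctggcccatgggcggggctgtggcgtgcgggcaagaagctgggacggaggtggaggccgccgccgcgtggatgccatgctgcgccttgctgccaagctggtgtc
Ddx4, chr13:112652311-112652560, minus strand: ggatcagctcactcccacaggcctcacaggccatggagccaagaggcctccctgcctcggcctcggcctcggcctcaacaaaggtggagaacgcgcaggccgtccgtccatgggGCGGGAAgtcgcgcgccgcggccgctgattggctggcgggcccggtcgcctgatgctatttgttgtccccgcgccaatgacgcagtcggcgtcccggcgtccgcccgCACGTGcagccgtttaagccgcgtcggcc
Gtsf1, chr15:103430428-103430677, minus strand: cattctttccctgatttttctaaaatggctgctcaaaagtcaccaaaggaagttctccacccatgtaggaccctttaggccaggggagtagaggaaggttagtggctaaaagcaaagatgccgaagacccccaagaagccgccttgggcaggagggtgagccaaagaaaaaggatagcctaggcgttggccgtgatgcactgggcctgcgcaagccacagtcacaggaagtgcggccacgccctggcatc
The Tdrd9 stretch held 2 E-boxes, beginning 165 and 95 bases before the start. Mov10l1 had 1 E-box 246 bases before its start, and Ddx4 had 1 at 29 bases with an E2F6-type motif at 136 bases. In the Gtsf1 stretch neither string was present. Over the 9 members with an entry, an E-box stood before a start of 5 (Tdrd9, Tdrd1, Mael, Mov10l1 and Ddx4), against 6.02% of 32851 promoters of that length, and an E2F6-type motif before a start of 2 (Tdrd5 and Ddx4), against 3.82%. The stretch before each member's first listed start also held more CpG pairs than the median promoter, which had 6: Tdrd9 had 8, Mov10l1 had 19, Ddx4 had 31 and Gtsf1 had 7, and the 9 genes ran from 7 to 40. Of the later starts, the third of Tdrd1 had 3 and the other of Piwil4 had 0. The members were counted over any of their 12 listed starts, while the shares are per promoter. Both motifs contain a CpG pair and the shares were not matched for CpG, so they do not measure enrichment in these genes. These strings are matches of letters only, and binding and methylation were not measured.

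The first comparison, at a fixed donor age, was of culture time. Of the 10 genes, 1 fell in the young long cultures and 2 rose: Tdrd9 was 4.28-fold lower in signal, Tdrd5 was 1.34-fold higher and Piwil4 was 1.40-fold higher. Over all probe sets, 11.3% passed the same test, an adjusted p under 0.05 in limma, with 5.43% higher and 5.83% lower, and the 3 members called are to be read against those shares. The median difference of the 10 genes was 0.10 on the log2 scale, against -0.04 for all probe sets. The total over all probe sets was 3260, and it was 1383 without young long replicate 1 and 1085 without young long replicate 3. When each array was centred on its median, 59.7% of the called probe sets were higher, against 48.3% in the values as deposited.

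Tdrd9 encodes a Tudor domain protein with an RNA helicase fold, a partner of Piwil4 in fetal germ cells of the mouse. Its signal (probe set 10398759, chromosome 12) was 6.50 and 6.04 in the serial transplant long cultures, 5.88, 6.15 and 5.89 in the young long cultures, and 8.29, 7.70 and 8.23 in the young short cultures. The 5 long-culture arrays lay together, all below the mark of dim signals, and the 3 short-culture arrays lay above it with no overlap. The mean was 5.98 ± 0.15 in young long cultures and 8.07 ± 0.32 in young short cultures (SD, n = 3 each), a difference of -2.10 ± 0.17 (SE; 95% interval -2.47 to -1.72; limma adjusted p = 0.000167). Between the serial transplant long and young long cultures it differed by 0.30 ± 0.19 (SE; limma adjusted p = 0.801), with overlapping arrays, so these neighbours in the order of levels did not differ beyond their spread. The lower quartile of an array lay between 5.32 and 5.52, below the long-culture values of Tdrd9; without a detection call the long-culture level was not distinguished from background, so the fold is one of signals and not a measured fold of RNA.

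**Figure D1:**
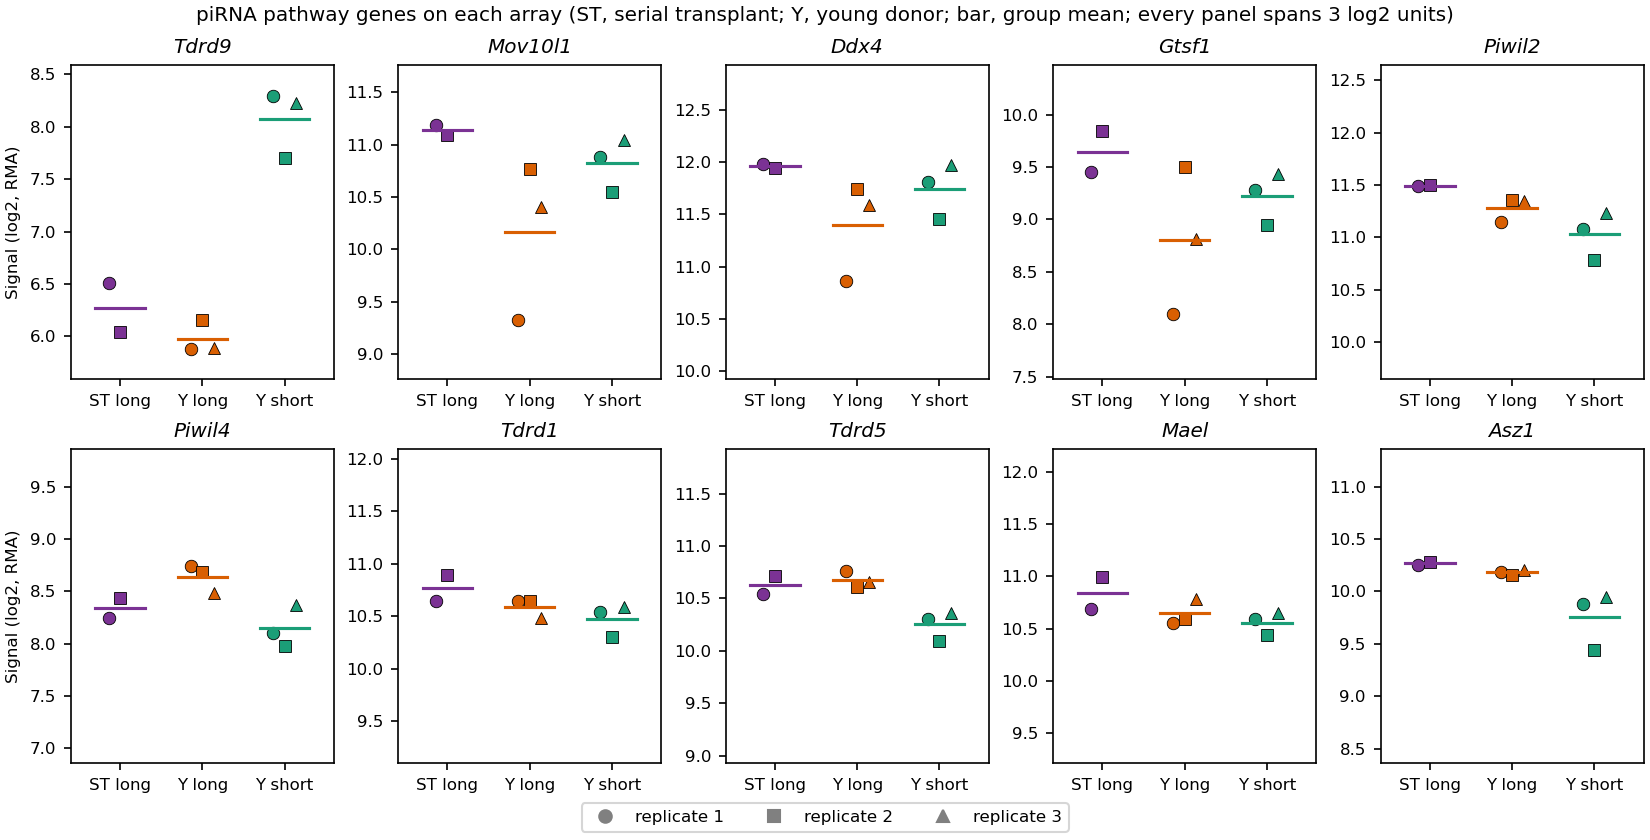
Signal (log2, RMA) of each of the 10 genes on each array, for serial transplant long, young long and young short cultures; points are arrays, shaped by replicate number, and bars are group means, with every panel spanning 3 log2 units. Tdrd9 stands at 5.88 to 6.50 on the 5 long-culture arrays and at 7.70 to 8.29 on the 3 short-culture arrays, and Mov10l1, Ddx4 and Gtsf1 spread widest among the young long arrays.

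The Tdrd9 difference kept its direction and stayed under the adjusted p of 0.05 in each of the 18 alternative analyses run, from -2.29 to -1.99, with adjusted p up to 0.00609. Not all of the 18 are separate checks. In this comparison the fit of the 2 groups and the fits without a serial transplant array are the same. The mean over probe sets and the log2 change of at least 1 reuse the main fit. Of the other 9 genes, none fell in this comparison by that test, and none had a difference larger than 0.66 in size. In bulk RNA, less Tdrd9 RNA per cell and fewer cells that contain it cannot be told apart. Markers of some other cell types fell as well, beside 5.83% of all probe sets lower. Of 13 fibroblast markers 11 fell in the young long cultures, of 9 macrophage and mast cell markers 6 fell, and of 5 Leydig cell markers 3 fell. Of 7 Sertoli cell markers none fell and 1 rose. The labels do not say whether feeder cells were in the RNA, so the fibroblast markers need not come from the testis. The mean signal of the fibroblast list was 9.38 to 9.42 in the young long cultures and 10.05 to 10.58 in the young short cultures. The macrophage and mast cell list averaged 5.36 to 5.48 in young long cultures and 6.47 to 7.27 in young short cultures, and the Leydig list 5.41 to 5.50 in young long cultures and 6.10 to 6.55 in young short cultures. Their part in the Tdrd9 result was not tested. Within the young short cultures, replicate 2 had the highest fibroblast mean, 10.58, and the lowest Tdrd9 signal, 7.70. Its macrophage and mast cell mean was also the highest, 7.27, while its Leydig mean was the lowest, 6.10. It had the lowest signal of its group for each of the 10 genes, not only for Tdrd9. Without this array the Tdrd9 difference was -2.29.

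Tdrd5 and Piwil4 rose in the young long cultures, by less than the fall of Tdrd9. Tdrd5 (probe set 10359118, chromosome 1) encodes a Tudor and LOTUS domain protein needed for retrotransposon silencing and for spermatid development. Its signal was 10.76, 10.61 and 10.66 in the young long cultures and 10.31, 10.09 and 10.36 in the young short cultures. Every young long array lay above every young short array, and the difference was 0.42 ± 0.11 (SE; limma adjusted p = 0.0281). Piwil4 (probe set 10590933, chromosome 9) encodes the nuclear PIWI protein MIWI2, which acts in DNA methylation of retrotransposons in fetal male germ cells. Its signal was 8.74, 8.69 and 8.49 in the young long cultures and 8.10, 7.98 and 8.37 in the young short cultures. These groups did not overlap either, and the difference was 0.49 ± 0.12 (SE; limma adjusted p = 0.0294). Both calls were lost when young long replicate 1, 2 or 3 or young short replicate 1 or 2 was left out, with limma adjusted p from 0.0517 to 0.106 for Tdrd5 and from 0.0550 to 0.112 for Piwil4; the differences themselves stayed between 0.34 and 0.48 for Tdrd5 and between 0.40 and 0.60 for Piwil4. With the replicate number as a block, Piwil4 missed the threshold at an adjusted p of 0.0522 and Tdrd5 stayed under it at 0.0494. Array weights also ended the Piwil4 call (0.34, adjusted p = 0.0520), and both calls were lost with the control-like rows kept (adjusted p = 0.0621 for Tdrd5 and 0.0707 for Piwil4).

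Asz1, the remaining gene whose young long and young short arrays did not overlap, encodes a germ cell protein of the outer mitochondrial membrane that stabilises PIWI proteins and Tudor scaffolds there. Its signal (probe set 10543259, chromosome 6) was 10.26 and 10.28 in the serial transplant long cultures, 10.18, 10.16 and 10.21 in the young long cultures, and 9.88, 9.44 and 9.95 in the young short cultures. The 5 long-culture arrays ran from 10.16 to 10.28, and the short-culture arrays lay lower and wider apart. The young long cultures differed from the young short cultures by 0.43 ± 0.13 (SE; limma adjusted p = 0.0552), which missed the threshold. It passed in 5 of the 18 alternatives: with the intensity trend (adjusted p = 0.0468), array weights (0.0353), the filter on dim probe sets (0.0415), median centring (0.0407), and without young short replicate 3 (0.0313). Over the 10 genes, 3 were higher without overlap (Tdrd5, Piwil4 and Asz1), against 15.1% of all probe sets, and 1 was lower without overlap (Tdrd9), against 16.3%.

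Tdrd1, Mael and Piwil2 did not pass the test between young long and young short cultures, and their arrays overlapped. Tdrd1 (probe set 10464171, chromosome 19), a Tudor scaffold that binds Piwil2 in the granules between mitochondria, averaged 10.59 ± 0.09 in young long and 10.47 ± 0.15 in young short cultures (SD, n = 3 each), with a 95% interval of the difference from -0.14 to 0.36. Mael (probe set 10359801, chromosome 1), a granule protein with an HMG box, averaged 10.65 ± 0.12 in young long and 10.56 ± 0.11 in young short cultures, with an interval from -0.17 to 0.34. Piwil2 (probe set 10421325, chromosome 14), the cytoplasmic PIWI protein MILI, gave 11.14, 11.36 and 11.35 in young long and 11.08, 10.79 and 11.24 in young short cultures, a difference of 0.25 ± 0.12 (SE; limma adjusted p = 0.233). The intervals of Tdrd1 and Mael leave out changes of the size seen for Tdrd9 in both directions.

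**Figure D2:**
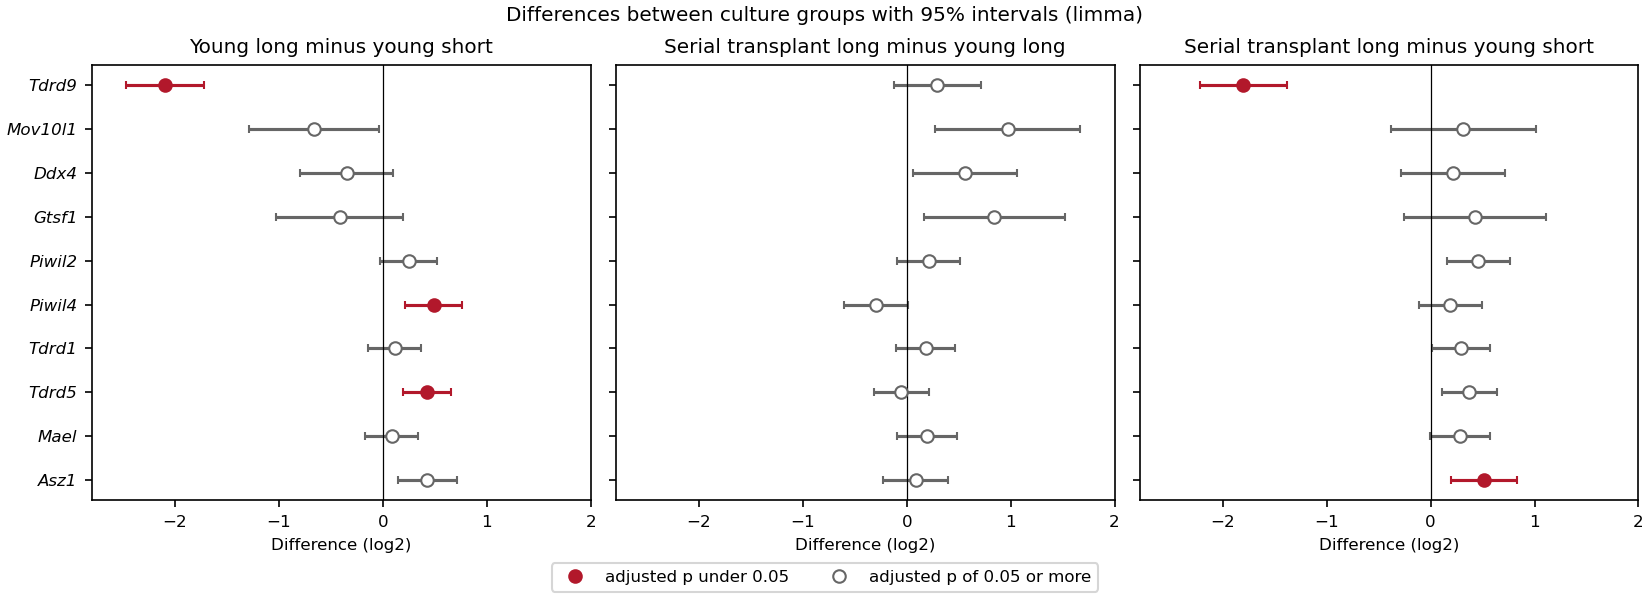
Differences (log2) of the 10 genes in the 3 comparisons; points are limma estimates, lines are 95% intervals, and filled points have an adjusted p under 0.05. Tdrd9 lies at -2.10 for young long minus young short and at -1.80 for serial transplant long minus young short, and no point is filled in the middle panel.

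Mov10l1, Ddx4 and Gtsf1 varied most among the young long arrays. Mov10l1 encodes the RNA helicase that hands piRNA precursors to processing, Ddx4 encodes the mouse VASA protein, a DEAD-box helicase and a classical germ cell marker, and Gtsf1 encodes a small zinc finger protein that binds PIWI proteins. Mov10l1 (probe set 10426118, chromosome 15) gave 11.18 and 11.09 in serial transplant long, 9.33, 10.76 and 10.40 in young long, and 10.88, 10.55 and 11.04 in young short cultures. Ddx4 (probe set 10412155, chromosome 13) gave 11.98 and 11.94 in serial transplant long, 10.87, 11.74 and 11.59 in young long, and 11.81, 11.46 and 11.97 in young short cultures. Gtsf1 (probe set 10433145, chromosome 15) gave 9.45 and 9.84 in serial transplant long, 8.10, 9.50 and 8.81 in young long, and 9.28, 8.95 and 9.43 in young short cultures. In each of the 3 genes young long replicate 1 was the lowest of the 8 arrays and replicate 2 the highest of its group. The SD within the young long cultures was 0.75 for Mov10l1, 0.70 for Gtsf1 and 0.47 for Ddx4, larger than that of 99.9%, 99.9% and 99.4% of probe sets in that group, where the median SD was 0.11. The young long cultures differed from the young short cultures by -0.66 ± 0.28 for Mov10l1, -0.42 ± 0.28 for Gtsf1 and -0.35 ± 0.20 for Ddx4 (SE; limma adjusted p = 0.168, 0.381 and 0.312). Without young long replicate 1 these differences were -0.24, -0.06 and -0.08, and without young long replicate 2 they were -0.96, -0.76 and -0.52; no setting run brought any of them under an adjusted p of 0.05.

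Young long replicate 1 stood somewhat apart from its group. It correlated with the other young long arrays at 0.994 and 0.996, which correlated with each other at 0.997. Of 28944 probe sets, 34 (0.117%) lay at least 1 log2 unit below both other arrays in replicate 1, Mov10l1 among these, beside 1 in replicate 2 and 0 in replicate 3. It was the lowest array of its group for 6 of the 10 genes, against 35.8% of all probe sets, and the highest for 3, against 34.2%. Its mean over 18 undifferentiated germ cell markers was 9.45, beside 9.49 and 9.59 on the other young long arrays. Replicate 1 was the lowest of its group for 7 of these markers and replicate 2 for 11. The fibroblast mean of replicate 1 was 9.38, beside 9.42 and 9.38, and it was the highest of its group for 7 of 13 fibroblast markers. Morc1, a germ cell ATPase needed for methylation of retrotransposons in mouse male germ cells, gave 7.01, 8.62 and 7.86 in the young long cultures. That is the same order of arrays as for Mov10l1, Ddx4 and Gtsf1. Among other silencing genes, Tex15, Tdrd12, Nanos3, Henmt1 and Ddx39a had that order too, while Mybl1, Nanos2 and Tdrkh had its reverse. The share of all probe sets in that order was not counted.

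Serial transplant long cultures were set against young long cultures at the same time in culture. The comparison was of a serially transplanted line, labelled with a 1500-day donor age, with a line from 8-day donors. None of the 10 genes passed the limma test, and neither did any of the 28944 probe sets (0% called; 7.18% had an unadjusted p under 0.05). Array weights gave 22 called probe sets, the fit of these 2 groups alone gave 15, the replicate block 4 and the fit without young short replicate 2 gave 11, with none of the 10 genes among them. With an unadjusted p under 0.05 there were 3 of the 10 genes, Mov10l1, Gtsf1 and Ddx4, each higher in the serial transplant long cultures. Their differences were 0.97 ± 0.32, 0.84 ± 0.31 and 0.56 ± 0.23 (SE; limma adjusted p = 0.534, 0.606 and 0.646). The sizes moved with the young long arrays used: without young long replicate 1 the differences were 0.55, 0.49 and 0.30, and without replicate 2 they were 1.27, 1.19 and 0.73. Without overlap, 5 genes were higher in the serial transplant long cultures (Tdrd1, Piwil2, Mov10l1, Ddx4 and Asz1), against 14.9% of probe sets, and 1 was lower (Piwil4), against 10.8%. The median difference of the 10 genes was 0.20, against 0.02 for all probe sets.

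The other genes had smaller differences between these groups. Tdrd1 gave 10.65 and 10.89 in serial transplant long cultures, above 10.64, 10.64 and 10.48 in young long cultures, a difference of 0.18 ± 0.13 (SE; limma adjusted p = 0.822). Piwil2 gave 11.49 and 11.50 in serial transplant long cultures, above 11.14, 11.36 and 11.35 in young long cultures, a difference of 0.21 ± 0.14 (SE; limma adjusted p = 0.804). Piwil4 gave 8.24 and 8.44 in serial transplant long cultures, below 8.74, 8.69 and 8.49 in young long cultures, a difference of -0.30 ± 0.14 (SE; limma adjusted p = 0.711). Tdrd5 was 10.54 and 10.72 against 10.76, 10.61 and 10.66, and Mael was 10.69 and 10.99 against 10.55, 10.60 and 10.79, both with overlap. With 2 serial transplant arrays the 95% intervals stayed wide: that of Tdrd5 ran from -0.31 to 0.21 and that of Piwil2 from -0.09 to 0.51.

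Serial transplant long cultures differed from young short cultures in labelled donor age, transplantation and culture time together. Tdrd9 fell and Asz1 rose in the serial transplant long cultures, and 8 of the 10 genes did not pass the test, beside 8.73% of all probe sets called, 3.58% higher and 5.15% lower. The 2528 probe sets called became 1528 without serial transplant long replicate 1 and 66 without serial transplant long replicate 2. Of those called, 41.0% were higher, against 51.0% with each array centred on its median. Tdrd9 averaged 6.27 ± 0.33 in serial transplant long (SD, n = 2) and 8.07 ± 0.32 in young short cultures (SD, n = 3), a difference of -1.80 ± 0.19 (SE; 3.49-fold lower in signal; limma adjusted p = 0.00103). It stayed under the threshold in all 18 alternatives run, from -2.03 to -1.57, with the highest adjusted p, 0.0383, without serial transplant long replicate 2. This comparison shares the young short arrays with the comparison of young long cultures, so the falls of Tdrd9 in both are not independent of each other. The fibroblast list averaged 9.48 and 8.84 in the serial transplant long cultures and 10.05 to 10.58 in the young short cultures, with 11 of 13 markers lower; its part in the result was not tested.

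Asz1 differed by 0.51 ± 0.14 between serial transplant long and young short cultures (SE; 1.43-fold higher; limma adjusted p = 0.0493). The call was kept without young short replicate 3 (adjusted p = 0.0261) and lost when any of the other 7 arrays was left out, with adjusted p from 0.0612 to 0.291 and differences from 0.35 to 0.57. Piwil2 came next, with 0.46 ± 0.14 (SE; limma adjusted p = 0.0647), followed by Tdrd5 with 0.37 ± 0.12 (adjusted p = 0.0810). Without overlap, 7 of the 10 genes were higher in the serial transplant long cultures, against 18.9% of probe sets, and 1 was lower, against 18.4%. The 7 were Tdrd1, Tdrd5, Mael, Piwil2, Mov10l1, Asz1 and Gtsf1, while Piwil4 and Ddx4 overlapped. The median of the 10 genes was 0.30, against -0.00 for all probe sets.

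An array of the young short group was lower for these genes. Young short replicate 2 had the lowest signal of its group for 10 of the 10 genes, against 37.2% of all probe sets, and for 17 of 18 undifferentiated germ cell markers. It had the highest signal of its group for 12 of 13 fibroblast markers, against 42.2% of all probe sets. Its mean over the germ cell markers was 9.19, beside 9.55 and 9.59 on the other young short arrays; the young long arrays ran from 9.45 to 9.59 and the serial transplant long arrays had 9.65 and 9.66. Its macrophage and mast cell mean was 7.27, beside 6.47 and 6.61, and its Leydig mean was 6.10, beside 6.55 and 6.19. Without this array the young long minus young short differences were -2.29 for Tdrd9 (adjusted p = 2.32e-05), 0.34 for Tdrd5, 0.40 for Piwil4 and 0.27 for Asz1. Over the 18 germ cell markers, 4 rose and 2 fell in the young long cultures, with a median difference of 0.17, and 4 rose and 2 fell in the serial transplant long against the young short cultures, with a median of 0.40. Differentiating spermatogonia had 7 markers measured, of which 5 rose and 1 fell in the young long cultures and 4 rose in the serial transplant long cultures. Of 7 Sertoli cell markers, 1 rose in the young long cultures, and 1 rose and 1 fell in the serial transplant long cultures. Macrophage and mast cell markers fell in 6 of 9 and Leydig markers in 2 of 5 there, and no marker of these lists was called between the serial transplant long and young long cultures. Over all probe sets, 5.43% were higher and 5.83% lower in the young long against the young short cultures. In the serial transplant long against the young short cultures, 3.58% were higher and 5.15% lower.

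**Figure D3:**
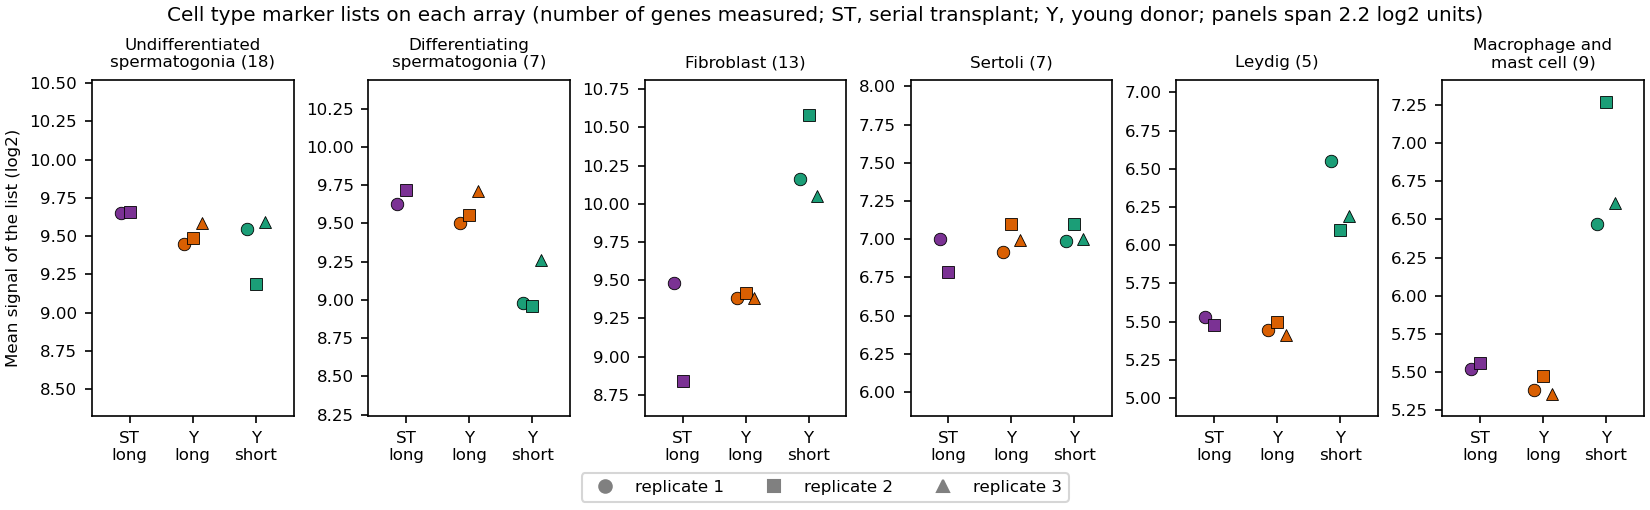
Mean signal (log2) of 6 lists of cell type markers on each array, for serial transplant long, young long and young short cultures, with the number of genes measured in each title; points are arrays. The fibroblast list averages 8.84 to 9.48 on the long-culture arrays and 10.05 to 10.58 on the short-culture arrays, and young short replicate 2 is highest for fibroblast and lowest for undifferentiated spermatogonia markers.

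Genes with profiles like those of Tdrd9 over the 8 arrays were searched among 18612 genes, by the root mean square difference after each gene's own mean was subtracted. The nearest was Dpep3, a membrane dipeptidase, at 0.10 log2 units, followed by Adh1, an alcohol dehydrogenase, at 0.27, Wfdc15a at 0.28, Magea3, a MAGE family gene, at 0.30, and Cyp11a1, the side chain cleavage enzyme that opens steroid synthesis and a Leydig marker, at 0.30. Dpep3 averaged 6.10 in serial transplant long, 5.79 in young long and 7.74 in young short cultures, so it too was dim in long culture. Cyp11a1 averaged 5.38 in serial transplant long, 5.25 in young long and 7.60 in young short cultures. No other member came near: the nearest by this measure was Mov10l1, ranked 5101, at 0.93. The ranking describes 8 arrays that share 3 groups and carries no test.

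Mov10l1, Gtsf1 and Ddx4 were near each other by the same measure, a search made after their values had been seen. Gtsf1 ranked 2 for Mov10l1, at 0.19, and Ddx4 ranked 5, at 0.23; the others of the nearest 5 were Nell2, Tktl1 and Adad1, a gene of an adenosine deaminase domain protein of male germ cells. For Gtsf1, Mov10l1 ranked 2 and Ddx4 ranked 6, with Tktl1, Trmt12, Nell2 and Hk2 as the others of the nearest 5. For Ddx4 the nearest were Hk2, a hexokinase, Mlc1, Spx, Timm8a2 and Rnd2, with Gtsf1 at rank 148 and Mov10l1 at rank 178. Among the 45 pairs of members, the closest were Tdrd5 with Asz1 at 0.10, Piwil2 with Asz1 at 0.11 and Tdrd1 with Mael at 0.11. The measure is not scaled by how much a gene varies, so genes that vary little lie close whatever their pattern. The root mean square deviation from the gene's own mean was 0.99 for Tdrd9, 0.56 for Mov10l1, 0.51 for Gtsf1 and 0.35 for Ddx4.

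**Figure D4:**
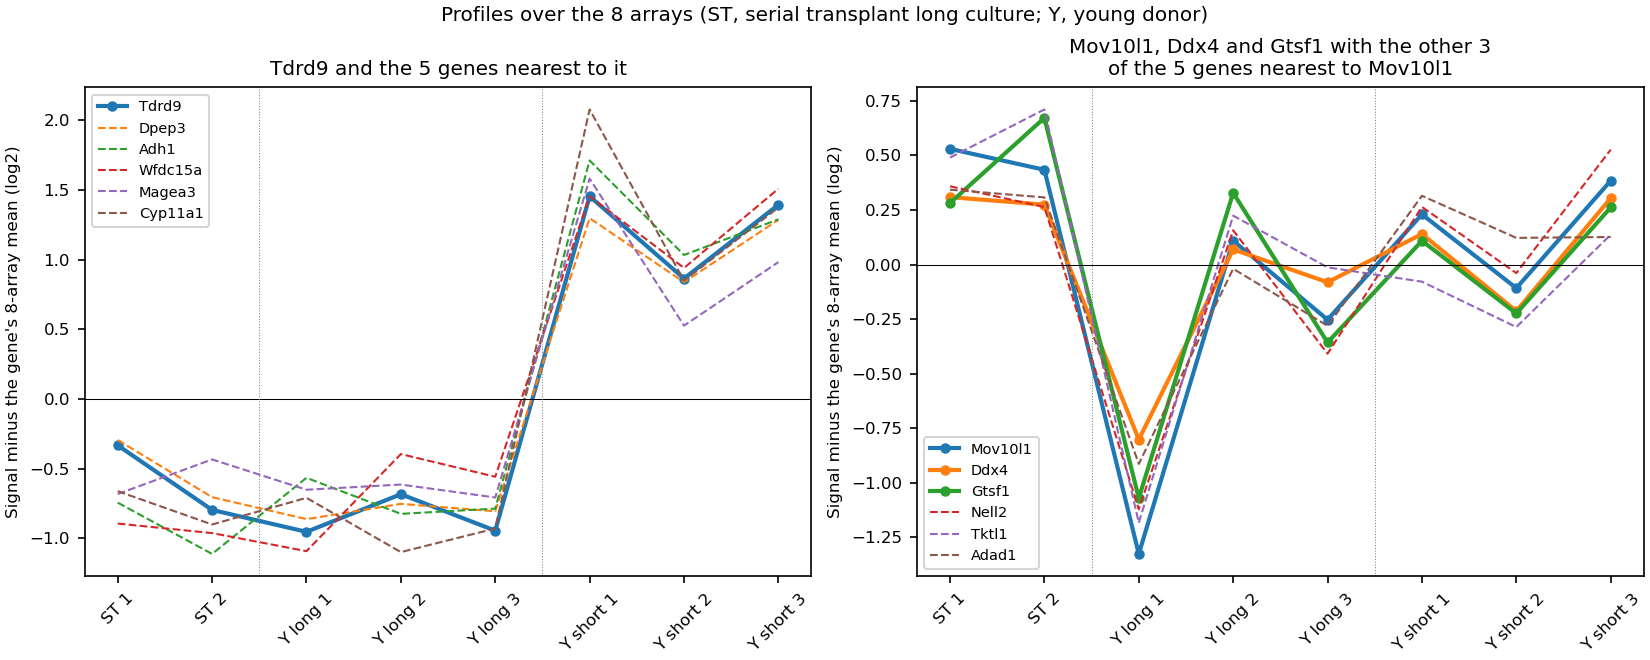
Signal minus each gene's own 8-array mean (log2) on the serial transplant long (ST), young long (Y long) and young short (Y short) arrays, with lines joining arrays of a gene only to guide the eye; left, Tdrd9 and the 5 genes nearest to it; right, Mov10l1, Ddx4 and Gtsf1 with the other 3 of the 5 genes nearest to Mov10l1. On the left all 6 genes are higher on the 3 short-culture arrays than on the 5 long-culture arrays, and on the right young long replicate 1 is the lowest array for all 6.

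Other lists of silencing genes were counted by the same test. Their counts are to be read against all probe sets: 5.43% higher and 5.83% lower in young long against young short cultures. In serial transplant long against young short cultures the shares were 3.58% higher and 5.15% lower. Of 21 measured piRNA partners, 3 rose and none fell in the young long against the young short cultures: Nanos3, an RNA-binding protein of germ cells, by 0.79 ± 0.13 (SE; limma adjusted p = 0.00524), Dazl, a germ cell regulator of translation, by 0.46 ± 0.11 (adjusted p = 0.0254), and Henmt1, which methylates the ends of piRNAs, by 0.49 ± 0.14 (adjusted p = 0.0481). Nanos3 and Dazl are also in the germ cell marker list. In the serial transplant long against the young short cultures, Nanos3 rose by 0.86 ± 0.15 (adjusted p = 0.00675) and Ddx39a, an RNA helicase, by 0.61 ± 0.13 (adjusted p = 0.0143), 2 of the 21. The list's medians were 0.20 and 0.23 in these comparisons, and 0.01 in the serial transplant long against the young long cultures.

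Of 9 measured genes of nuclear silencing and DNA methylation, 2 fell in the young long cultures, against 5.83% of all probe sets. Morc1 averaged 7.83 in young long and 8.89 in young short cultures, a difference of -1.06 ± 0.29 (SE; limma adjusted p = 0.0401). Its young long arrays gave 7.01, 8.62 and 7.86, and its young short arrays gave 8.96, 8.82 and 8.89. Between serial transplant long and young short cultures Morc1 was not called, at -0.68 ± 0.33 (SE; limma adjusted p = 0.255). Dnmt3l, a cofactor of new DNA methylation in the germ line, differed by -0.51 ± 0.14 (adjusted p = 0.0425), with both means, 5.15 in young long and 5.67 in young short cultures, below the mark of dim signals. In the serial transplant long against the young short cultures, Tex15, a nuclear partner of Piwil4 in the mouse, rose by 0.68 ± 0.16 (adjusted p = 0.0257). Of 16 measured genes of heterochromatin at transposons, Zfp809, a zinc finger repressor of retroviruses in mouse embryonic cells, fell by 0.54 in the young long cultures (SE 0.13; adjusted p = 0.0267), and none was called in the serial transplant long against the young short cultures.

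The largest differences in these lists were in cytoplasmic restriction, of which 11 genes were measured. In the young long cultures 4 of them rose, against 5.43% of all probe sets, and 2 fell, against 5.83%. Tex19.1, a mammalian germ cell protein that restrains retrotransposons in the mouse, gave 6.50 and 5.54 in serial transplant long, 5.998, 6.24 and 6.52 in young long, and 9.95, 9.47 and 9.87 in young short cultures. As with Tdrd9, the long-culture arrays lay below the mark of dim signals and the short-culture arrays above it. Tex19.1 differed by -3.51 ± 0.22 in young long against young short cultures (SE; 11.4-fold lower; limma adjusted p = 2.63e-05) and by -3.74 ± 0.25 in serial transplant long against young short cultures (13.4-fold lower; adjusted p = 5.21e-05); as for Tdrd9, these are folds of signals with a dim long-culture side. Its paralogue Tex19.2 gave 6.33 and 6.30 in serial transplant long, 6.64, 6.69 and 6.37 in young long, and 7.77, 7.36 and 7.61 in young short cultures, differences of -1.01 ± 0.13 for young long (adjusted p = 0.00171) and -1.26 ± 0.14 for serial transplant long (adjusted p = 0.00143) against young short. Cross-hybridisation between these paralogues was not tested. In the young long cultures Dicer1, which cuts double-stranded RNA, rose by 0.41 ± 0.09 (adjusted p = 0.0175), Apobec3, a cytidine deaminase, by 0.51 ± 0.12 (adjusted p = 0.0233), and Samhd1, a nucleotide hydrolase, by 0.46 ± 0.12 (adjusted p = 0.0362). Ago4, an Argonaute protein named after its values were seen, was the fourth to rise, by 0.43 ± 0.12 (adjusted p = 0.0436), with means of 6.14 in young long and 5.71 in young short cultures, below the mark of dim signals. Apobec3 also rose in the serial transplant long against the young short cultures, by 0.64 ± 0.14 (adjusted p = 0.0161). No gene of the 4 lists was called between serial transplant long and young long cultures, as for the 10 genes.

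**Figure D5:**
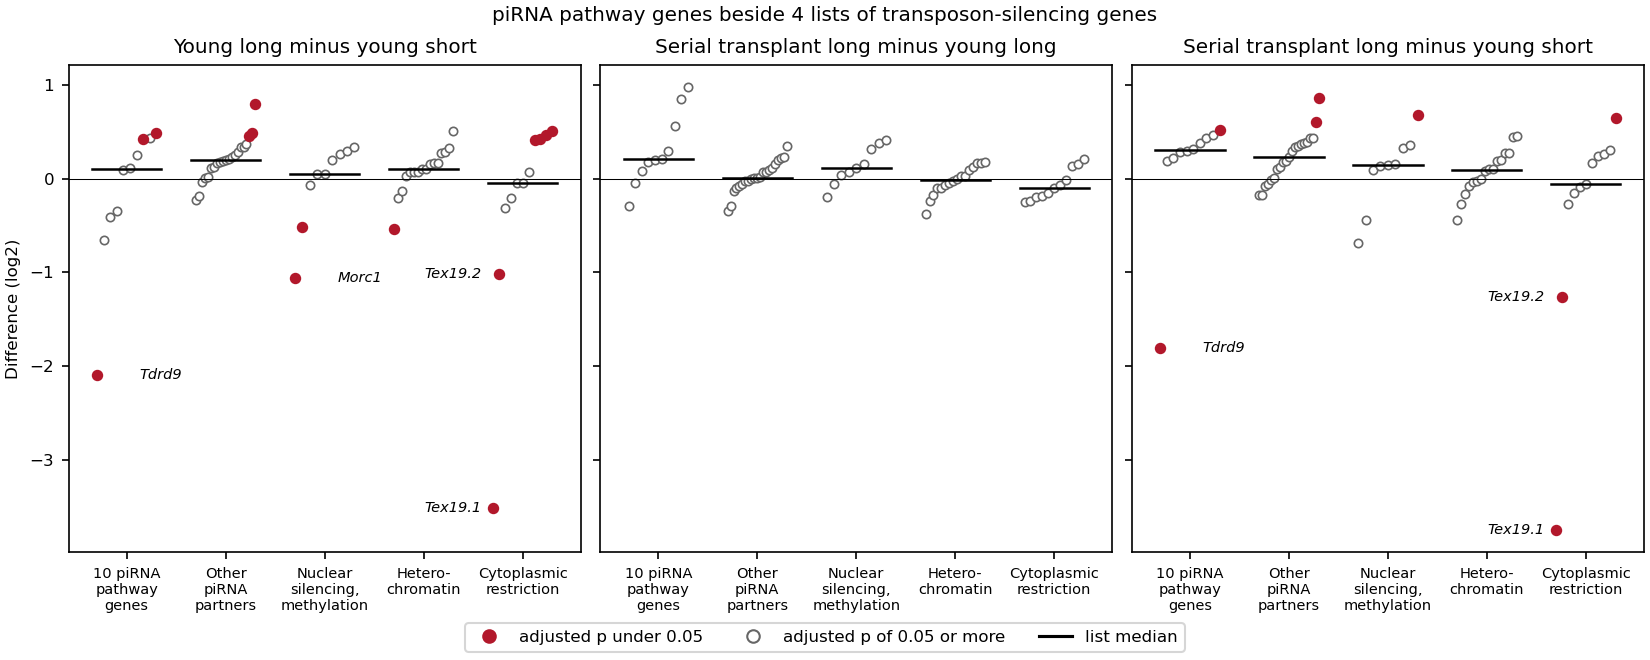
Difference (log2) of every measured gene of the 10 piRNA pathway genes and of 4 other lists, in the 3 comparisons; filled points have a limma adjusted p under 0.05 and bars are list medians. Called with a difference of at least 1 log2 unit were Tdrd9, Tex19.1 and Tex19.2 in the outer panels and Morc1 in the left panel only. All of these were lower in long culture, and the middle panel has no filled point.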

How the data were processed

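Affymetrix arrays measured total RNA (100 ng, Trizol, biotin-labelled cRNA) in 8 samples, as the labels' protocols state. The deposited values are log2 signals that the authors made using RMA in Partek 6.4, according to the submitters' processing notes; the sources used here do not give settings, filters or the annotation's build. The table has 35557 rows; 6613 at its start with consecutive numbers were taken as controls and left out. Probe sets were named by a single symbol in the platform annotation, and chromosomes and promoters came from RefSeq (GRCm38.p6), in which all 10 genes were found.

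Groups came from the labels. limma 3.58.1 in R 4.3.3 fitted 1 coefficient per group over all 8 arrays, with 3 contrasts, eBayes, two-sided tests, and Benjamini-Hochberg adjustment over 28944 probe sets at 0.05. The fit was tried on simulated data with independent noise and changes of 1 or 2 log2 units. Smaller changes, like those of Tdrd5, Piwil4 and Asz1, and arrays that stand apart were not simulated. The comparisons share arrays, so they are not set against each other. Described were the 10 members, the called genes of 4 lists (at most 5 each), marker lists, and the 5 genes nearest to a called member with a change of at least 1. The members and lists were chosen with earlier results of these data known. Fkbp6, Btbd18, Spocd1, Suv39h1, Mphosph8, Fbn1 and Insl3, among other listed genes, are not analysed here. The alternatives were an intensity trend, array weights, fitting 2 groups, a filter on dim probe sets, median centring, quantile normalization, a replicate block, a log2 change of at least 1, control-like rows kept, a mean over probe sets and leaving out each array. Precision is limited by the number of arrays.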

Additional observations from a re-analysis of the deposited data

How the results depend on the processing

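Across the 10 genes, 3 comparisons and 18 alternatives, 502 of 540 values kept direction and side of the threshold, 28 lost a call, 9 gained one, and 1 changed sign: Tdrd5 in serial transplant long against young long cultures was 0.038 without serial transplant long replicate 1, against -0.05 (-0.14 to 0.038 when an array was left out). The mean over probe sets changed nothing, as each gene has 1. The log2 change of at least 1 reused the p-values of the main fit, and some fits of a comparison were the same fit. The 540 values are therefore not separate checks.

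The number of probe sets called in young long against young short cultures, 3260, was 5079 with array weights, 396 with a log2 change of at least 1, 1542 with the control-like rows kept, and 1085 to 3195 when an array was left out. Of the 10 genes, 2 were higher in that comparison, Tdrd5 and Piwil4; 3 were, with Asz1 added, under the intensity trend, the filter on dim probe sets or median centring, 2 with array weights, Asz1 in place of Piwil4, 1 with the replicate block, 0 with a log2 change of at least 1 or the control-like rows kept, and 0 to 3 when an array was left out. In serial transplant long against young long cultures, where 0 were called, 22 were with array weights, 15 with the 2 groups alone, 4 with the replicate block, and 0 to 11 when an array was left out. In serial transplant long against young short cultures, 2528 became 1252 with the 2 groups alone, 564 with a log2 change of at least 1, 1079 with the control-like rows kept, and 66 to 2817 when an array was left out. Of the 10 genes, 1 was higher there; 2 were with the intensity trend, the filter on dim probe sets or median centring, 0 with array weights, the 2 groups alone, quantile normalization, a log2 change of at least 1 or the control-like rows kept, and 0 to 2 when an array was left out. The array weights and the replicate block are different fits of the same arrays, and the cause of these shifts was not tested. With the control-like rows kept, 35557 rows were adjusted over; fits of the 2 groups alone or without an array had fewer arrays.

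Same-numbered arrays of different groups deviated together weakly (correlations from -0.27 to 0.18 over 7 pairs, 2 of them over 0.1). All negative ones involved the serial transplant group, whose 2 arrays deviate from their mean in exactly opposite ways, so those pairs cannot show pairing. The 3 pairs of young long with young short arrays were all positive, from 0.08 to 0.18. The main fit did not pair arrays by number, and these values do not settle whether they were paired. Of the 3 young long and 3 young short arrays, 2 of each correlated best with their own number. With the replicate block the young long against young short count was 2754. Where leaving out a serial transplant array left 1, the fit took that array to vary like the other groups. Without a detection call, dim signals limit the long-culture levels of Tdrd9 and Tex19.1.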

Other observations

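Neighbouring genes in the order of the RefSeq annotation were looked up for the 4 genes whose promoters are shown, after the values were seen. Over all probe sets, young long replicate 1 was the lowest of its group for 35.8% and replicate 2 the highest for 38.1%. The orders of arrays given here are to be read against those shares. Mlc1, a membrane protein gene next to Mov10l1, gave 6.87, 7.68 and 7.38 on the young long arrays, the same order of arrays as Mov10l1, while Panx2 on the other side gave 7.30, 7.35 and 7.21. The young long cultures differed from the young short cultures by -0.48 for Mlc1 (limma adjusted p = 0.135) and by 0.01 for Panx2 (adjusted p = 0.975). Beside Tdrd9, Atp5mpl averaged 11.12 in young long and 11.06 in young short cultures, a difference of 0.06 (adjusted p = 0.748). Beside Ddx4, Slc38a9 gave 8.81, 8.97 and 9.14 on the young long arrays, while Il31ra, below the mark of dim signals, gave 4.88, 5.37 and 5.21, the order of Ddx4. Beside Gtsf1, Itga5 gave 7.16, 7.41 and 7.22, the order of Gtsf1, and differed by -0.48 in young long against young short cultures (adjusted p = 0.0253), while Gtsf2, also dim, gave 3.15, 3.41 and 3.42.

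The median deviation of young long replicate 1 from its group mean was -0.07 over 374 genes of chromosome 13, which carries Ddx4, and -0.07 over 443 genes of chromosome 15, which carries Mov10l1 and Gtsf1. Over the 18 other chromosomes it ran from -0.10 to 0.15, with a median of 0.03 and 1 below 0. The lowest was chromosome 8, at -0.10, which carries none of the 10 genes. On that array Mov10l1, Gtsf1 and Ddx4 themselves deviated by -0.84, -0.70 and -0.53, far more than the chromosome medians. A link between the chromosome medians and these genes was not tested.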
